A study of Mus musculus with 3 samples.

Results

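Genes of leukocyte adhesion and homing were followed as a set of 9, chosen by name from the 27998 gene rows shared by 3 single-cell libraries. The set held *Selplg*, *Itgam*, *Itgal*, *Itgb2*, *Itga4*, *Icam1*, *Vcam1*, *Sele* and *Selp*. *Itgam* names 2 rows, so 10 rows carried a name of the set. The second *Itgam* row is a read-through gene that overlaps *Itgam* (Gm49368 in the annotation), and it held 3.33%, 5.68% and 3.18% of the molecules of both rows in bone marrow, blood and tendon. It was kept apart from *Itgam*.

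All 3 libraries came from mice aged 10 weeks that had received a dorsal burn plus a complete cut through the Achilles tendon (burn/tenotomy), an injury after which bone forms in the tendon (heterotopic ossification, HO), and the cells were taken 3 days after surgery. The bone marrow group was flushed from femurs, the blood group was the mononucleated fraction of a Ficoll gradient, and the tendon injury group was digested from the HO site with collagenase and dispase. Red cells were lysed in marrow and blood, nothing was sorted, and no uninjured library was analysed here. The study's methods name male C57BL/6J mice, while the number of mice behind a library is stated in none of the sources read. With 1 library per tissue, no test between tissues was possible and every interval covers counting error only. Tissue, cell preparation and library run together and cannot be told apart.

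Leukocytes leave the blood in steps. Selectins of the endothelium (E-selectin, encoded by *Sele*, and P-selectin, encoded by *Selp*) catch the cell through sialylated ligands such as PSGL-1 (*Selplg*), and the cell rolls. Chemokines then activate integrins: LFA-1 (*Itgal* with *Itgb2*) and Mac-1 (*Itgam* with *Itgb2*) bind ICAM-1 (*Icam1*), and VLA-4 (*Itga4* paired with *Itgb1*) binds VCAM-1 (*Vcam1*). VLA-4 and VCAM-1 also hold immature cells in bone marrow, and venules are the usual site of exit in inflamed tissue.

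On build GRCm38 (mm10), with GENCODE M21 gene positions, both selectin genes lie on the plus strand of chromosome 1, *Sele* at chr1:164048234-164057677 and *Selp* at chr1:164115264-164150026. *Itgal* (chr7:127296260-127335138) and *Itgam* (chr7:128062640-128118491) lie on the plus strand of chromosome 7. *Itgb2* is at chr10:77530252-77565708, *Itga4* at chr2:79255426-79333123, *Icam1* at chr9:21015985-21028817, *Vcam1* at chr3:116109949-116129688 on the minus strand and *Selplg* at chr5:113818536-113832644 on the minus strand. All are annotated as protein coding.

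The promoters of 4 genes are shown because the vessel results turn on *Sele*, *Selp* and *Icam1*, and *Itgam* gives a leukocyte gene beside them. Each run is the 250 bases before the RefSeq start on GRCm38.p6, 5′ to 3′ on the gene's strand. Promoter sequence was matched for 5 of the 9 genes (these 4 and *Itga4*). In *Sele*, *Selp* and *Icam1* the capitals mark a match to the kappaB-like letters (GGG, any 5 bases, CC) on either strand, and in *Itgam* they mark the PU.1-like letters GAGGAA on either strand.
Sele, chr1:164047984-164048233: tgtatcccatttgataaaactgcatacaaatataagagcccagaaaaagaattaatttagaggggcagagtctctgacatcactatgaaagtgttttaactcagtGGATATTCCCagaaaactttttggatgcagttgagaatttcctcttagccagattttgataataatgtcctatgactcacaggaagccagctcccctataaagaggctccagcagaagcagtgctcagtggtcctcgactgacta
Selp, chr1:164115014-164115263: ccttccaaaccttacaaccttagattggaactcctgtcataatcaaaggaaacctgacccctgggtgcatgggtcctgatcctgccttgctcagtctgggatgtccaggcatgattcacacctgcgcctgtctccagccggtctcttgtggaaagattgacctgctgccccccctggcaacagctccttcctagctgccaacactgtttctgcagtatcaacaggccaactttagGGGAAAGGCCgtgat
Icam1, chr9:21015690-21015939: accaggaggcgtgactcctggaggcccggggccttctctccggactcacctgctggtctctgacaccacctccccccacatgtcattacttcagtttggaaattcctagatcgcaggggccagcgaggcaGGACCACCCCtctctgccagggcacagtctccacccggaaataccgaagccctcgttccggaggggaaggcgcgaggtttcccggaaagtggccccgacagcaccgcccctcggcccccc
Itgam, chr7:128062390-128062639: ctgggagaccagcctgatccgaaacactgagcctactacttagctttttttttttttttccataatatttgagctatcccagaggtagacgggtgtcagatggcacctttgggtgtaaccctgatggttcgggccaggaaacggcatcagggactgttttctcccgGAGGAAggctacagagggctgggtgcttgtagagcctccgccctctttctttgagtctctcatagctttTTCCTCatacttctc

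Counting back from the base before the start as -1, the kappaB-like match began at -145 in *Sele*, -15 in *Selp* and -120 in *Icam1*. These letters were found in 45.8% of the 32851 RefSeq promoters of the same length, so these matches are a description only. Overlapping matches at -140 and -139 in *Itgam* are not marked. The PU.1-like letters began at -84 and -15 in *Itgam* and at -107 in *Sele*, and 23.2% of promoters held them. The AP-1-like letters TGANTCA, held by 6.75% of promoters, began at -73 in *Sele* and at -139 in *Selp*. *Itga4* held none of the 3 motifs.

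Levels are in CPM, the UMIs (unique molecular identifiers, 1 per captured RNA molecule) of a gene per 1000000 UMIs of all genes, summed over the cells of a class, with exact Poisson 95% intervals. The 3 libraries held 1855 to 5629 cells and 22542581 to 90621052 UMIs, with a median of 8316 to 22836 UMIs per cell, and 1813, 2146 and 4780 cells were kept from marrow, blood and tendon. Classes were named from marker lists that hold none of the 9 genes, and the 9 genes were left out of the clustering. A class called neutrophil-like thus holds the clusters that matched the neutrophil markers best. In the tendon library, 617 mesenchymal-like cells lay in 4 clusters that each carried 7 to 12 of 13 stromal markers. Clusters that could not be named took 9.71%, 9.69% and 18.4% of the kept cells. The libraries shared 1 to 6 cell barcodes in pairs.

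Neutrophil-like cells carried *Selplg*, *Itgal*, *Itgam* and *Itgb2* in all 3 tissues. *Selplg* stood at 171 CPM in the 993 marrow cells (165 to 176), 889 in the 389 blood cells (859 to 920) and 666 in the 328 tendon cells (627 to 707). The blood level was the highest of the 26 classes ranked. After each cell was thinned to 1000 UMIs, 61.7% of blood neutrophil-like cells held a *Selplg* molecule against 0.162% of mesenchymal-like cells, which should lack it. Without thinning the shares were 99.0% and 9.08%, at median depths of 8508 and 36364 UMIs. For *Itgam*, *Itgal* and *Itgb2* the thinned shares were 36.9% in marrow and 28.5% and 40.4% in blood neutrophil-like cells, against 0.162%, 0.325% and 0 of 616 in mesenchymal-like cells, where a floor of 3 cells is 0.487%.

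Within marrow, the stages shared 1 library and 1 preparation. From the azurophil stage (300 cells, led by *Elane* and *Mpo*) to the mature stage (287 cells, led by *Cxcr2* and *Retnlg*), 7 of the 8 genes with enough molecules were at least 2-fold apart, beside 71.0% of all 10190 genes tested. Enough meant at least 20 UMIs over both classes. *Selplg*, *Selp* and the genes of the beta2 integrins were all on the higher side in mature cells, while the median of all genes was at -1.27 on the log2 scale. *Sele*, with 8 UMIs in the azurophil and 0 in the mature stage, had too few molecules. *Selplg* was at 70.9 in the azurophil stage, 39.6 in cycling cells, 126 in the specific granule stage and 564 in mature cells, so that most of its difference lay in the last step. *Itgal* went from 22.1 through 33.2 and 70.7 to 149 CPM over the same stages. *Itgam*, the Mac-1 alpha chain, was at 112, 275, 543 and 492, so its highest level came at the specific granule stage. *Itgb2*, the beta chain of both integrins, was at 123, 253, 405 and 499. *Selp* was low throughout, with 1.19 in the azurophil and 13.8 in the mature stage (16 and 50 UMIs).

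*Vcam1* was lower in mature cells. It was at 52.4 CPM in the azurophil stage (48.6 to 56.4, 707 UMIs), 14.2 in cycling cells, 1.496 in the specific granule stage and 0 of 3614158 UMIs in mature cells, which puts the mature level at least 63.1-fold lower. Its molecules were in 41.3% of azurophil-stage cells, or 4.68% after thinning, and no blood B-like or T-like cell held one. The 4 azurophil clusters ranged from 14.9 to 87.4 CPM. Macrophage markers, which could bring in *Vcam1*, summed to 23.9 CPM in that class, with 0 of 12 above 10 and 1 at 0. Monocyte markers summed to 1464 there, 5 of 10 above 10, against 837 in mature cells, and their part in the levels was not tested. Marrow monocyte-like cells held *Itga4* at 333 and *Vcam1* at 8.08. *Icam1* also stood at 0 in mature cells against 33 UMIs (2.44 CPM) in the azurophil stage, at least 2.94-fold lower. That ratio, -1.56 on the log2 scale, is close to the median of all genes, and it stayed past 2-fold in 9 of 12 alternatives. *Itga4* was highest in the azurophil stage at 65.2, lowest in cycling cells at 21.7 and at 42.1 in mature cells, a mature to azurophil ratio of -0.63 on the log2 scale (-0.89 to -0.38) that is under 2-fold and above the median of all genes.

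**Figure D1:**
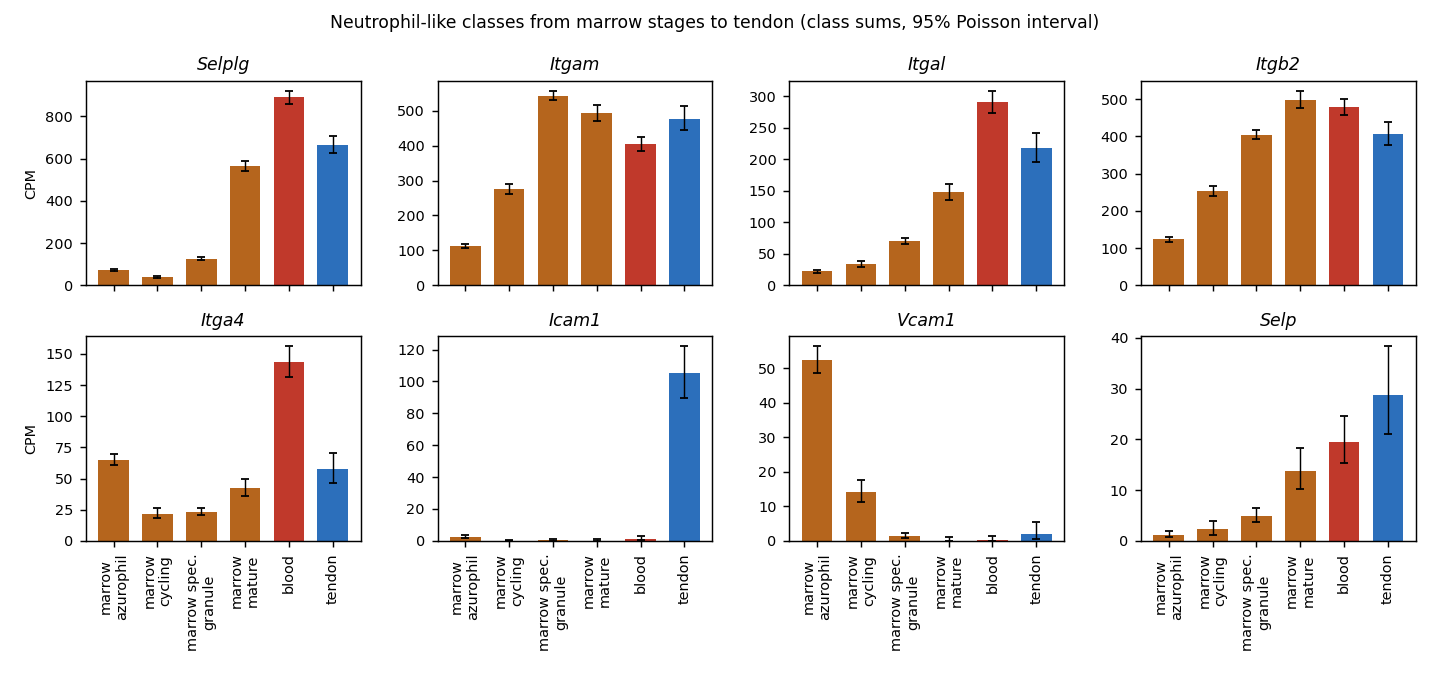
Bars give CPM of 8 genes in neutrophil-like classes, from the 4 marrow stages (brown) to blood (red) and tendon (blue), and error bars are exact Poisson 95% intervals. *Icam1* stands at 105 in tendon and at 2.44 or less elsewhere, *Vcam1* is highest in the azurophil stage at 52.4, and *Selplg* peaks in blood at 889.

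Blood neutrophil-like cells were compared with the 993 marrow neutrophil-like cells, which exclude the azurophil stage and include 54 cells given no stage. Of the 7 genes with enough molecules, 5 were at least 2-fold apart, beside 42.1% of all 9472 genes. *Itga4* stood at 143 CPM in blood and 26.5 in marrow (5.42-fold higher, log2 2.44, 2.27 to 2.61). *Selplg* was 5.21-fold higher in blood (log2 2.38, 2.31 to 2.45) and *Itgal* 4.07-fold, at 291 against 71.5 (log2 2.02, 1.91 to 2.14). *Selp* was 3.61-fold higher (19.5 and 5.41) and *Vcam1* lower, with 1 UMI in blood against 106 in marrow (log2 -4.14, -9.46 to -1.63). *Itgam* (404 and 456) and *Itgb2* (478 and 373) were under 1.3-fold apart.

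An alternative chosen after the first values were known set blood against the mature marrow cells alone. Only *Itga4* then stayed at least 2-fold apart, at 143 against 42.1 (3.41-fold, log2 1.77, 1.51 to 2.04). *Vcam1*, with 1 UMI in blood and 0 in mature marrow cells, had too few molecules to be counted. The median of all genes was 0.08 here, and the share of all genes apart is not given, so this count is a description only. *Itgal* was then 1.96-fold and *Selplg* 1.58-fold higher in blood, and *Itgb2* did not separate (log2 -0.06, -0.16 to 0.04). Median depth was 12450 UMIs per cell in mature marrow cells and 8508 in blood. Monocyte markers summed to 837 and 464 CPM, and their part in these differences was not tested.

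Between tendon and blood, neutrophil-like cells differed most in *Icam1*. Of the 7 genes with enough molecules, 2 were at least 2-fold apart from blood, beside 30.3% of 6473 genes, and the median of the 7 (-0.23) was close to that of all genes (-0.16). *Icam1*, the counter-receptor of LFA-1 and Mac-1, was at 0.180 CPM in marrow, 1.08 in blood and 105 in tendon (4, 4 and 168 UMIs). The tendon level was 96.8-fold that of blood (log2 6.60, 5.21 to 8.49), and the intervals, 0.295 to 2.78 in blood and 89.7 to 122 in tendon, were far apart. *Itga4* was 2.49-fold lower in tendon (57.5 against 143, log2 -1.32, -1.65 to -0.997). *Selplg* (log2 -0.42), *Itgal* (-0.42), *Itgb2* (-0.23) and *Itgam* (0.24) had intervals off 0 but were under 1.4-fold apart. *Selp* was at 28.7 in tendon and 19.5 in blood, with an interval that reached 0 (-0.01 to 1.11).

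The *Icam1* molecules were in 25.9% of tendon neutrophil-like cells, and in 8.98% after thinning, and no cell held more than 4.76% of them. Median depth was 4297.5 UMIs per cell in tendon and 8508 in blood. Keratinocyte-like cells of the same library held *Icam1* in 2.17% of thinned cells and at 31.4 CPM, and Schwann-like cells were at 4.02 CPM. Macrophage markers were seen in the tendon neutrophil-like class, 6 of 12 above 10 CPM with a sum of 330, and so were monocyte markers, with a sum of 334 against 464 in blood. *Icam1* stood at 81.2 in the tendon monocytic class, 190 in endothelial-like cells and 393.8 in an unnamed tendon cluster with neutrophil markers. The part of other cells in the neutrophil-like level was not tested. For *Selp*, the platelet marker *Gp9* was at 0 in tendon and blood neutrophil-like cells, *Ppbp* at 1.25 and 0, and *Pf4* at 55.6 and 1.36.

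**Figure D2:**
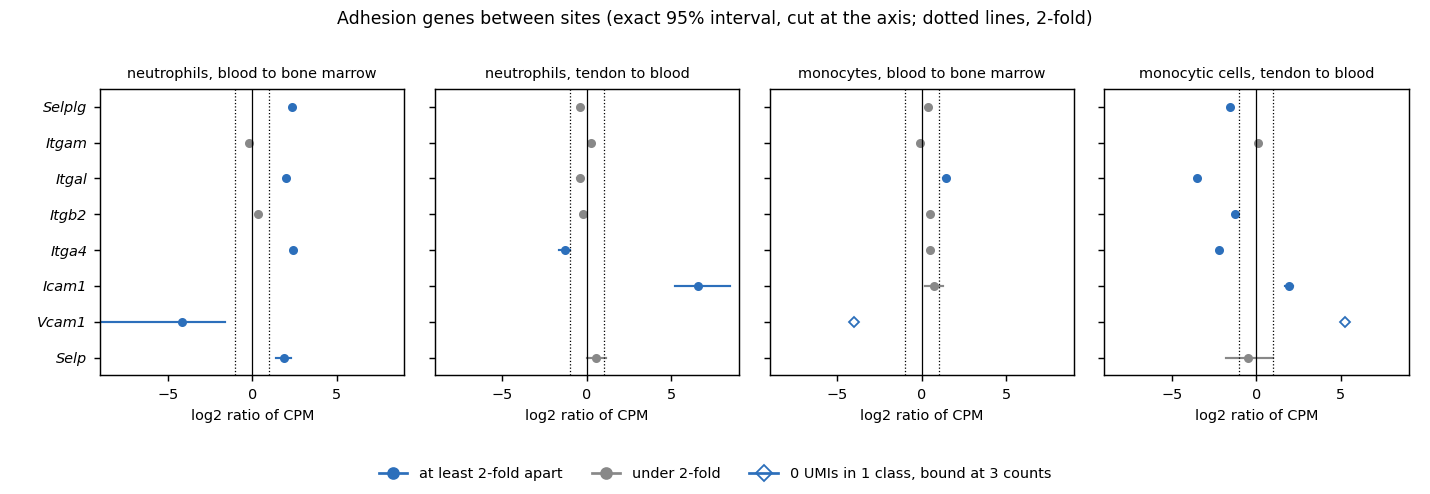
Points give the log2 ratio of CPM between sites for 8 genes in neutrophil-like and monocytic classes, with exact 95% intervals and dotted lines at 2-fold. *Icam1* lies to the right in tendon for both lineages (6.60 and 1.92), *Itga4* to the left (-1.32 and -2.22), and *Itgam* within 2-fold in all 4 panels.

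Monocytic cells of the tendon differed from blood monocyte-like cells in most genes of the set. The tendon class joined 567 monocyte-like and 1520 macrophage-like cells, and blood gave 386 monocyte-like cells. Unnamed tendon clusters of 419 and 63 cells, each with 11 of 12 macrophage markers, were left out. The larger of them held *Itgal* at 6.64 and *Itgam* at 350 CPM (log2 -5.71 and 0.46 to blood). Of 8 genes with enough molecules, 6 were at least 2-fold apart, beside 32.6% of 11703 genes, with 4 lower and 2 higher in tendon and a median of -0.90 against 0.05 for all genes. *Itgal* was at 30.7 in tendon, 347 in blood and 128 in marrow monocyte-like cells, 11.3-fold lower in tendon than in blood (log2 -3.50, -3.62 to -3.38). *Itga4* stood at 99.0 against 460 in blood (log2 -2.22), *Selplg* at 99.0 against 288 (-1.54) and *Itgb2* at 173 against 420 (-1.28). Neutrophil markers summed to 5002 CPM in the blood and 688 in the tendon class, 8 of 15 above 10 in both, and their part in these differences was not tested. *Icam1* was 3.798-fold higher in tendon, 81.2 against 21.4 (log2 1.92, 1.67 to 2.19). *Vcam1* gave 490 UMIs in tendon (19.1 CPM) and 0 of 5987812 in blood, at least 38.1-fold higher. *Itgam* was level, at 266 and 254 (log2 0.07, -0.02 to 0.15).

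With the monocyte-like cells of the tendon alone, 3 genes of the set were at least 2-fold from blood monocyte-like cells. *Vcam1*, with 16 UMIs in tendon and 0 in blood, had too few molecules to be counted. The share of all genes apart is not given for this alternative, so the count is a description only. In the comparison with classical blood monocytes that follows, the median of all genes was -0.265. Against classical blood monocytes, tendon monocyte-like cells differed in *Itga4* (156 against 404, log2 -1.38) and in *Icam1* (83.7 against 22.4, log2 1.90), while *Selplg* (-0.94), *Itgal* (-0.82) and *Itgb2* (-0.24) were lower by less than 2-fold and *Itgam* higher by 0.44. Within the tendon, macrophage-like cells had 8.88-fold less *Itgal* than monocyte-like cells (10.8 against 96.3) and 8.94-fold more *Vcam1* (24.0 against 2.69). *Icam1* did not separate them (80.4 and 83.7, log2 -0.06, -0.20 to 0.09). *Vcam1* was seen in 12.2% of macrophage-like cells without thinning. Mesenchymal markers were at 85.8 CPM in the joined class, 5 of 13 above 10, and their part in the *Vcam1* level was not tested.

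Between marrow and blood monocyte-like cells, few genes of any kind were apart, and the median of the set was 0.465 beside -0.07 for all genes. Of 7 genes, 2 were at least 2-fold apart, beside 6.19% of 9541 genes. *Itgal* was 2.71-fold higher in blood (347 against 128, log2 1.44, 1.29 to 1.59), and *Vcam1* was at 0 in blood and 8.08 in marrow (28 UMIs), at least 16.1-fold lower in blood. Of those 28 molecules 71.4% came from 1 cell, and 1.60% of marrow monocyte-like cells held any, so this call rests on that cell. *Itgam*, *Itgb2*, *Itga4* and *Selplg* lay between -0.10 and 0.47 on the log2 scale. *Itgal* was uneven within blood. The 116 nonclassical monocytes, which patrol the vessel wall, held 1284 CPM (1213 to 1357) against 170 in the 270 classical cells (7.56-fold, log2 2.92, 2.79 to 3.05), beside 128 in marrow. Nonclassical cells were also higher in *Itgb2* (854 against 338) and in *Itga4* (755 against 404), but not in *Itgam* (248 and 255) or *Selplg* (308 and 284).

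**Figure D3:**
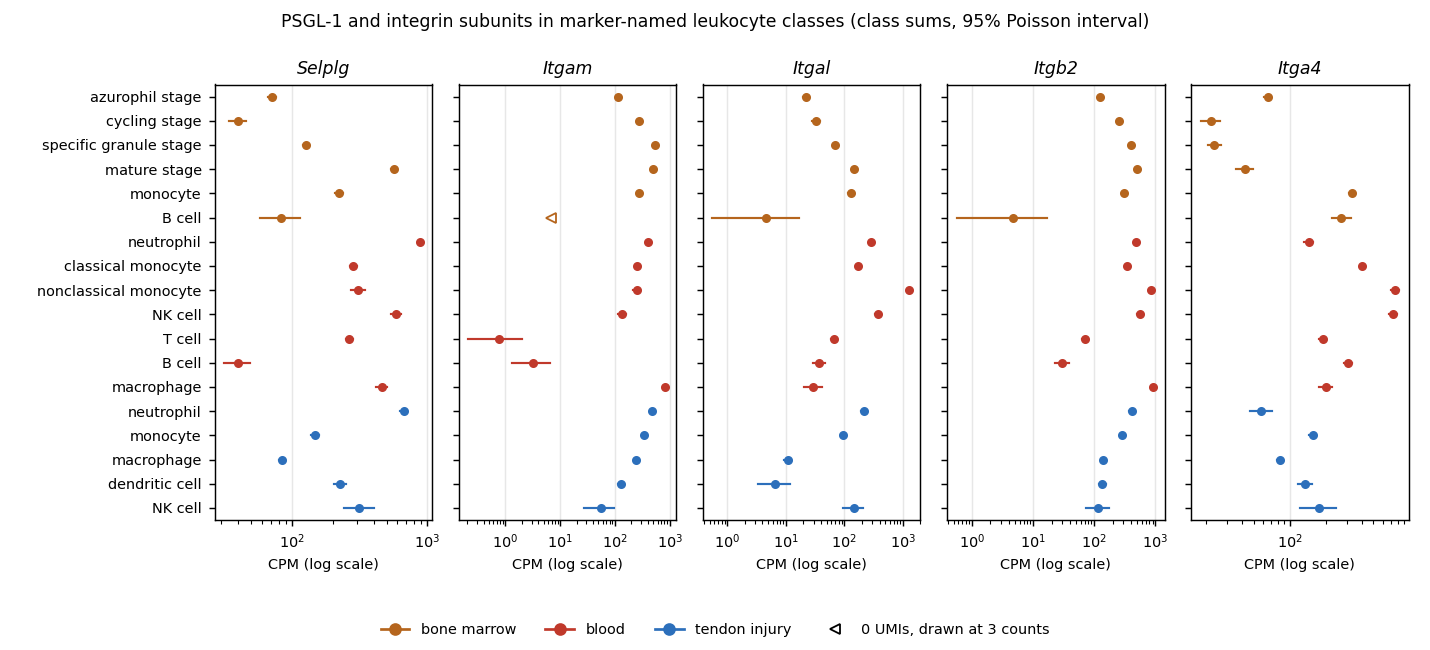
Points give CPM of *Selplg* and 4 integrin subunits in 18 leukocyte classes on a log axis, coloured by library, with exact Poisson 95% intervals, and an open triangle marks 0 UMIs drawn at 3 counts. *Itgal* is highest in nonclassical blood monocytes (1284) and low in tendon macrophage-like cells (10.8), and *Itga4* is lower in neutrophil-like cells than in blood monocyte-like and NK-like cells.

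Side by side in the tendon library, neutrophil-like and monocytic cells were at least 2-fold apart in 5 of 8 genes, beside 63.9% of 11512 genes. *Selplg* (666 against 99.0), *Itgal* (217 against 30.7), *Itgb2* (407 against 173) and *Selp* (28.7 against 0.818) were higher in neutrophil-like cells, and *Vcam1* was lower (1.87 against 19.1). *Icam1* (log2 0.37), *Itgam* (0.84) and *Itga4* (-0.79) were within 2-fold. The median of all genes was -1.10 here, so *Itga4* and *Icam1* also sat above it.

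Among blood lymphocytes, NK-like cells stood out in integrins. Of 6 genes, 5 were at least 2-fold higher in the 139 NK-like than in the 584 T-like cells, and none was lower. Of all 8915 genes, 19.6% were higher and 28.4% were apart in either direction. *Itgam* had 124 UMIs (136 CPM) in NK-like and 4 (0.775) in T-like cells, a log2 ratio of 7.46 (6.06 to 9.36). *Itgb2* was at 555 and 70.7, *Itgal* at 373 and 66.8, *Itga4* at 735 and 188, and *Selplg* at 589 and 266 CPM. *Itga4* was higher in NK-like cells than in any other class ranked, although nonclassical monocytes, which were not ranked apart, reached 755. T-cell markers summed to 541 CPM in the NK-like class, 5 of 9 above 10. The T-like class left out an unnamed blood cluster of 84 cells with 9 of 9 T-cell markers, led by *Cxcr6*, *Gzmm* and *Klrc1*. *Itgam*, *Itgb2* and *Itga4* stayed past 2-fold in all 15 alternatives, *Itgal* in 14 and *Selplg* in 12. The lowest log2 ratios were 4.51 for *Itgam*, 1.21 for *Itgb2* and 0.95 for *Itgal*.

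Of the blood classes ranked, B-like cells had the lowest *Selplg* level. Of 5 genes, 3 were at least 2-fold lower in the 369 B-like than in T-like cells. Of all 9264 genes, 8.91% were lower and 23.8% were apart in either direction. The 3 genes were *Selplg* (39.5 against 266, 6.72-fold), *Itgb2* (29.9 against 70.7) and *Icam1* (6.44 against 20.9). *Itga4* was higher in B-like cells by less than 2-fold (304 against 188, log2 0.70, 0.55 to 0.84). The 54 B-like cells of marrow were led by *Igll1*, *Vpreb1* and *Vpreb3*. The larger blood B-like cluster (335 cells) was led by *Fcer2a* and *Cr2*, and the part of cell stage in their differences was not tested. *Selplg* was higher in marrow than in blood B-like cells (83.1 against 39.5, log2 1.07, 0.47 to 1.65). *Itga4* was near the blood level (270 against 304). Marrow B-like cells held only 2 UMIs each of *Itgal* and *Itgb2*, 4.62 CPM against 37.2 and 29.9 in blood. The log2 ratios of marrow to blood were -3.01 (-6.08 to -1.11) and -2.69 (-5.77 to -0.78). The 40 plasmacytoid dendritic-like cells of marrow reached 656 for *Selplg* and 0 for *Itgam*.

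In the vessel wall of the tendon, the endothelial selectins and *Icam1* were carried by endothelial-like cells. *Sele* stood at 205 CPM in the 213 endothelial-like cells (193 to 217), 1.03 in the 107 mural-like cells and 0.326 in the 617 mesenchymal-like cells (1220, 3 and 8 UMIs). *Selp* stood at 574 (555 to 594), 2.39 and 1.43 in the same classes (3423, 7 and 35 UMIs). *Icam1* was at 190 in endothelial-like, 17.1 in mural-like and 38.5 in mesenchymal-like cells. *Vcam1* was at 97.7, 39.3 and 96.1, so endothelial-like and mesenchymal-like cells did not separate (log2 0.02, -0.11 to 0.15).

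Against mural-like cells, 6 of 6 genes with enough molecules were at least 2-fold apart, beside 28.8% of 11063 genes. *Selp* was 240.0-fold higher (log2 7.91, 6.86 to 9.22), *Sele* 199.6-fold (7.64, 6.09 to 9.92), *Icam1* 11.1-fold (3.47, 3.06 to 3.91) and *Vcam1* 2.48-fold (1.31, 1.02 to 1.61). *Itga4* was 14.5-fold lower in endothelial-like cells, since mural-like cells held 21.9 CPM (64 UMIs) and mesenchymal-like cells 0.489. *Itgam* was also lower, on 14 and 17 UMIs. Against mesenchymal-like cells, 4 of 8 genes were at least 2-fold apart, all higher. Of all 13021 genes, 14.4% were higher and 32.7% were apart in either direction. The 4 genes were *Sele* (log2 9.29), *Selp* (8.65), *Icam1* (2.30, 2.18 to 2.43) and *Itga4* (9 and 12 UMIs). Of the 9 endothelial *Itga4* molecules 8 lay in the 41 capillary-like cells, as did 12 of 21 of the leukocyte gene *Ptprc*, and the ratio was -0.24 with no doublets removed. Mesenchymal markers in mural-like cells summed to 7166 CPM with 7 of 13 above 10, and their part in the mural *Vcam1* level was not tested. Endothelial markers in mural-like cells summed to 228 CPM with 6 of 14 above 10, and mural markers in endothelial-like cells to 441 with 4 of 11.

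Within the endothelial-like class, both selectins were seen in the venular-like cluster alone. The 172 venular-like cells held all 1220 *Sele* and all 3423 *Selp* molecules, and the 41 capillary-like cells held 0 of both. The venular name came from *Ackr1* and other venular markers, scored against the capillary-like cluster alone. Both selectins were kept out of clustering and naming, although they rank among the leading genes of the cluster. Those leading genes also held *Apln* and *Stmn2*, and *Stmn2* was on the list of arterial markers. With 360058 UMIs in the capillary-like class, venular-like levels of 218 for *Sele* and 611 for *Selp* were at least 26.2-fold and 73.4-fold higher. *Vcam1* was at 103 against 11.1 (log2 3.22, 1.85 to 5.10) and *Icam1* at 196 against 91.6 (log2 1.10, 0.60 to 1.65). The 33 lymphatic-like cells held *Selp* at 132 (106 to 163), *Icam1* at 60.1, *Vcam1* at 7.51 and *Sele* at 4.51. Of the lymphatic *Selp* molecules, 31.8% came from 1 cell. A cluster of 31 cells close to both endothelial and mural markers was left unnamed and had *Sele* at 15.7 and *Selp* at 37.7. Median depth was 25415 UMIs per venular-like and 6905 per capillary-like cell.

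**Figure D4:**
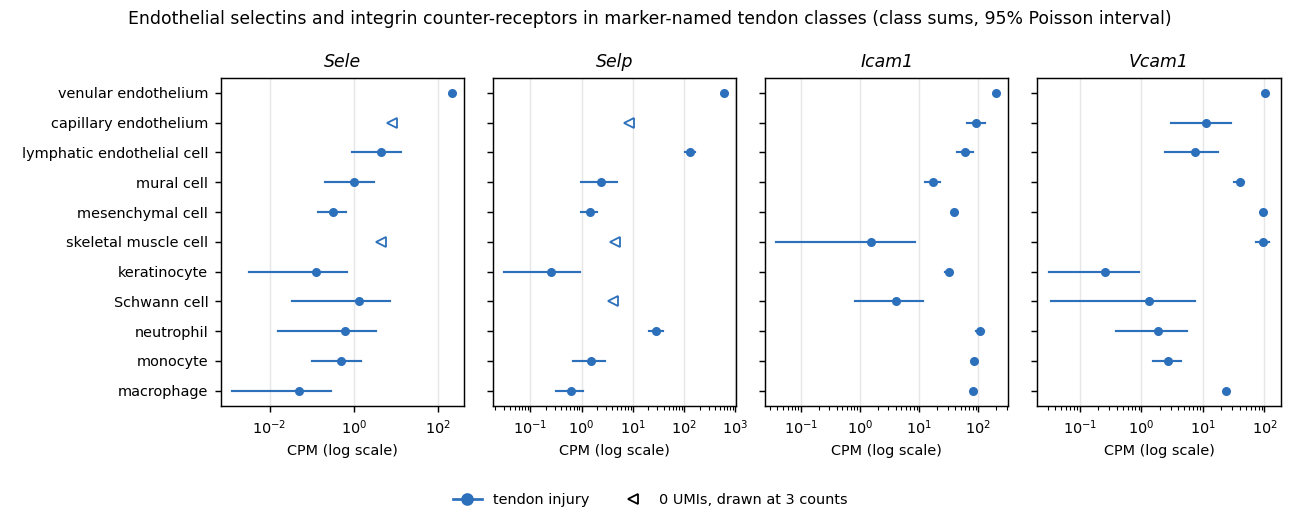
Points give CPM of *Sele*, *Selp*, *Icam1* and *Vcam1* in 11 tendon classes on a log axis, with exact Poisson 95% intervals, and an open triangle marks 0 UMIs drawn at 3 counts. *Sele* (218) and *Selp* (611) are highest in venular-like endothelium, *Icam1* is spread over most classes, and *Vcam1* is near 100 in venular-like, mesenchymal-like and muscle-like cells.

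Single venular-like cells often held both selectins before thinning. Of 172 cells, 88 held *Sele* and *Selp*, 7 *Sele* only, 22 *Selp* only and 55 neither, and 59 held all 4 of *Sele*, *Selp*, *Icam1* and *Vcam1*. Cell depth is shared by these counts. After thinning to 1000 UMIs, the first 4 groups held 14, 13, 38 and 103 of 168 cells, and 1 cell held all 4 genes. The thinned shares in all endothelial-like cells were 12.9% for *Sele* (8.69% to 18.2%), 24.9% for *Selp* and 8.13% for *Vcam1*. For all 3 genes they were 0 of 365 B-like and 0 of 582 T-like cells of blood, where a floor of 3 cells is 0.822% and 0.515%. Without thinning, the endothelial-like shares were 44.6%, 51.6% and 40.8%, and 0.856% of T-like cells held *Sele*, at median depths of 20393 and 8860.5 UMIs. The molecules were uneven, and 1 cell held 14.8% of *Sele* and another 9.49% of *Selp* in the endothelial-like class. Platelets also carry *Selp*, and platelet markers summed to 26.5 CPM in endothelial-like cells, with 1 of 9 above 10 and 3 at 0. *Itga2b*, an integrin of platelets, was at 18.6 CPM and *Gp9* at 0.503.

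*Icam1* and *Vcam1* differed in how far they reached beyond the endothelium. *Icam1* was at 119 in tendon NK-like, 105 in neutrophil-like, 83.7 in monocyte-like, 80.4 in macrophage-like, 74.3 in dendritic-like and 31.4 CPM in keratinocyte-like cells, against 0.180 to 36.2 in the marrow and blood classes ranked above 0. The NK-like value rests on 24 UMIs in 35 cells, 29.2% of them in 1 cell. That NK-like cluster was led by *Il5*, *Ifng* and *Xcl1*. The endothelial-like level of 190 stood apart from the next class, while NK-like, neutrophil-like and monocyte-like neighbours overlapped. *Vcam1* was at 0 in blood T-like, B-like, NK-like and monocyte-like cells, and 1 UMI was seen in blood neutrophil-like cells. In the tendon stroma, the 4 mesenchymal-like clusters ranged from 50.7 to 157, and 17 skeletal muscle-like cells reached 94.0. An unnamed cluster of 84 cells with 9 of 13 mesenchymal markers was higher, at 187 (167 to 208).

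Of the classes ranked, *Itgam* and *Itgb2* were highest in 37 macrophage-like cells of the blood library (822 and 913), a cluster led by *Alox15*, *Cd5l*, *Retnla* and *Timd4*. Blood was drawn by cardiac puncture, and whether these cells circulated was not tested. Nonclassical blood monocytes, which were not ranked apart, held *Itgb2* at 854. For *Itgam*, tendon and marrow neutrophil-like cells came next (477 and 456), and their intervals overlapped. With monocyte subtypes left joined, *Itgal* was highest in blood NK-like and monocyte-like cells (373 and 347, overlapping), then in blood neutrophil-like cells (291). *Itga4* ran from 735 in blood NK-like through 460 in blood monocyte-like to 333 in marrow monocyte-like and 304 in blood B-like cells, of which the marrow monocyte-like and B-like intervals overlapped. *Selp* followed its endothelial-like level of 574 with 275 in the blood macrophage-like cells and 132 in lymphatic-like cells, each apart from the next.

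The other adhesion genes were read as 73 genes in 7 lists with markers left out. Between tendon and blood neutrophil-like cells, 37 were tested, and 7 were higher and 4 lower by at least 2-fold, beside 30.3% of all genes apart in either direction, with a median of -0.07 beside -0.16 for all genes. *Itga5*, the fibronectin receptor alpha chain, was higher (38.1 against 5.69, log2 2.74, on 61 and 21 UMIs). So was its partner *Itgb1* (35.0 against 12.2, log2 1.52, on 56 and 45 UMIs). Among all 6 tested integrin subunits outside the set, 4 were higher and 0 lower. Mesenchymal markers summed to 193 CPM in the tendon neutrophil-like class, 5 of 13 above 10, and their part in these levels was not tested. *Pecam1* was higher on 13 and 7 UMIs. *Mcam*, *Sipa1* and *Rasgrp2*, the last an activator of Rap1 upstream of integrins, were lower (log2 -1.41, -1.23 and -1.21). Of 7 tested enzymes that build selectin ligands, 0 were 2-fold apart.

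Between blood and marrow neutrophil-like cells, 15 of 43 were higher and 6 lower, beside 42.1% of all genes apart, with a median of 0.46 beside -0.27. The sialyltransferase *St3gal6* was at 66.1 against 5.82 (log2 3.51), *Itgax* at 11.1 against 0.226 and *Itgb7* at 6.24 against 0.541, while *Itga6*, *Spn* and *Ceacam1* were lower (log2 -2.66, -1.83 and -1.71). Along the marrow stages, 14 of 44 were higher in mature cells and 15 lower, beside 71.0% apart, with a median of 0.04 beside -1.27. *St3gal6* (32.9 against 0.148), *Mcam* (14.1 against 0.0741) and *Gcnt1*, a core 2 branching enzyme of PSGL-1 glycans (67.2 against 2.89), were the most higher, and *Cd48*, *Itga6* and *Cd34* the most lower (log2 -6.34, -6.07 and -4.86).

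In monocytic cells, 11 of 56 were higher in tendon than in blood and 18 lower, beside 32.6% of all genes apart, with a median of -0.28 beside 0.05. *Itga6* (39.9 against 1.34) and *Itga9* (22.5 against 1.17) were higher. *S1pr5* (0.156 against 36.6), the mucin *Spn* (4.48 against 118) and the fucosyltransferase *Fut7* (0.390 against 5.01) were lower. Between blood and marrow monocyte-like cells 5 of 45 were higher and 0 lower, beside 6.19%, among them *S1pr5* (36.6 against 5.19), *Itgax* (21.4 against 4.33) and *Spn* (118 against 34.3). In tendon neutrophil-like against monocytic cells, 13 of 51 were higher, among them *St3gal6* (111 against 5.18) and *Cd300lf* (394 against 32.0), and 20 lower, among them *Itga6* and *Cd48*, beside 63.9% of all genes apart.

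In NK-like against T-like cells of blood, 18 of 44 were higher, among them *S1pr5* and *Itgax* (both at 0 in T-like cells), and 6 lower, led by *S1pr1* (51.6 against 363), *Itga6* and *Itgae*, beside 28.4% of all genes apart. In B-like against T-like cells, 12 of 46 were higher, led by *Cxcr5*, *Ceacam1* and *Gcnt1*, and 10 lower, led by *Cd226*, *Thy1* and *Skap1*, beside 23.8%. In endothelial-like against mural-like cells, 24 of 49 were higher, led by *Icam2* (285 against 3.08), VE-cadherin (*Cdh5*, 807 against 12.0) and *Jam2*, and 7 lower, led by *Thy1*, *Cd44* and *Rasgrp2*, beside 28.8% of all genes apart. Against mesenchymal-like cells 27 of 56 were higher, led by *Podxl*, *Icam2* and *Esam*, and 9 lower, led by *Thy1*, *Apbb1ip* and *Cd44*, beside 32.7%.

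The genes whose levels ran most like each member were found over the 26 ranked classes, which share 3 libraries, by Pearson's r of log2(CPM + 1). For *Selplg* they were *Arhgap9* (0.93), *Bin2* (0.92) and *Rassf5* (0.92), and for *Itgal* *Rassf5* (0.92), *Bin2* (0.91) and *Gpr65* (0.91). *Itgb2* ran with *Myo1f* (0.93), *Arrb2* and *Rgs14*, *Itgam* with *Fcgr3* (0.92), *Lilrb4a* and *Ccr1*, and *Itga4* with *Dock2* (0.91), *Pik3cd* and *Arhgap15*. *Sele* ran with *AU021092* (0.85), *Lhx6* and *Tmem252*, and *Selp* with *Ccm2l* (0.79), *Cmtm8* and *Ushbp1*. *Sele* was at 205 CPM in endothelial-like cells and at 11.4 or less in every other ranked class, so its matches rest mostly on 1 class. *AU021092* and *Lhx6* held only 207 and 209 UMIs over the classes. *Icam1* ran with *Nt5dc3* (0.87), *Fxyd4* and *Gcsh*, and *Vcam1*, the least matched, with *Tslp* (0.76), *Traf7* and *Serpinf1*.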

How the data were processed

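Bone marrow, blood and tendon injury cells of mice were each captured as 1 library (10x 3′ v3). The authors sequenced them and counted UMIs per gene and cell with Cell Ranger (5.0.1 in the matrix headers) on mm10, and the deposited counts are unnormalized whole numbers. Groups follow the tissue in the labels. The 9 genes, the lists and the tests were chosen with earlier results of these data known.

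Cells with at least 200 genes and at most 20% mitochondrial UMIs were kept. Scrublet's own threshold marked 1, 32 and 6 cells, so cells were instead taken out from the top of its score, at a rate of 0.8% for every 1000 cells (27, 38 and 198 cells). Each library was clustered in scanpy 1.11.5 (2000 variable genes, 30 components, 15 neighbours, resolution 1). A cluster was named by its best-matching marker list, with at least 3 markers at least 4-fold above the mean over clusters. The name was withheld where another type was close or had more markers among the leading genes, or where a cluster was small. It was also withheld where a cluster was shallow and had no marker of its type among the leading genes. UMIs were summed per class and scaled to 1000000 (CPM). Log2 ratios have exact binomial 95% intervals. A class at 0 was set to a floor of 3 counts over the class, which gives a bound. Apart means 2-fold with at least 20 UMIs over both classes. Shares have Clopper-Pearson intervals after thinning. PCR copies are collapsed by UMIs, and intervals cover counting error only. Named genes were all members, the 3 other adhesion genes most apart in each direction per comparison, and the 3 genes most alike per member. Some genes that this rule picks are not reported here. The scripts were tested on simulated data. Alternatives were other cell filters, resolutions, naming, joint or Seurat 5.3.0 clustering, scaling, minimum counts and folds.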

Additional observations from a re-analysis of the deposited data

Results flagged for a closer look

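No group had enough libraries to look for a library apart from the rest, and no gene of the set was at least 2-fold apart in opposite directions in neutrophil-like and monocytic cells between the same sites. Cells outside the comparisons were flagged where a gene lay at least 2-fold above every compared class of the same library, marrow stages and other subclasses included, with intervals apart. In tendon, a cluster of 231 cells with 11 of 15 neutrophil markers stayed unnamed. Its depth was low (median 2687 UMIs) and no neutrophil marker was among its leading genes, which included *Il1a*, *Cxcl2*, *Cxcl3* and *Tnf*. It held *Icam1* at 393.8 CPM (346.8 to 445.4, 253 UMIs). The highest compared class, venular-like endothelial cells, was at 196.3, and neutrophil-like cells were at 105. In the same cluster *Itgal* was 2.02-fold lower than in tendon neutrophil-like cells and *Itga4* was near them (51.4 against 57.5), and macrophage markers summed to 456 with 7 of 12 above 10.

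In the blood library, the 37 macrophage-like cells led by *Alox15*, *Cd5l*, *Retnla* and *Timd4* held *Selp* at 275.3 CPM (308 UMIs, 81.1% of cells), against 19.5 in blood neutrophil-like cells, the highest compared class. Whether they circulated was not tested. Of platelet genes in these cells, *Pf4* was at 4547 CPM while *Ppbp*, *Gp9*, *Gp1bb* and *Itga2b* were at 0. The same cells held *Itgam* at 822.2, against 403.7 in blood neutrophil-like cells.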

How the results depend on the processing

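No paired analysis was possible because each tissue gave 1 library. For the same reason no replicate could be left out. Counts under other settings were of members apart, or of members whose share lay above that of a class that should lack them. Of these 161 counts, 154 stayed within 1.5 times the first count and 7 moved. Of 1113 single values (log2 ratios and shares), 835 stayed within the 95% interval of the first value and 276 moved outside it. The other 2 had been at least 2-fold apart at first and changed sign. Sign changes of values under 2-fold at first were not counted apart. For blood against marrow monocyte-like cells (2 at first), 1 gene was apart with the libraries clustered together without integration and 1 with at least 100 UMIs required. With Seurat anchors, 8 were apart between tendon neutrophil-like and monocytic cells (5 at first) and 3 between NK-like and T-like cells (5 at first). At 1.5-fold, 5 were apart between B-like and T-like cells (3 at first). Added after the data were seen, tendon monocytes only gave 3 in place of 6, and marrow mature neutrophils only gave 1 in place of 5. The count of members whose share lay above that of the class that should lack them was 8 of 8, and 7 to 8 at other depths. Of the 45 ratios at least 2-fold apart, 43 kept their direction in every alternative run and 32 stayed past 2-fold. *Icam1* along the marrow stages was past 2-fold in 9 of 12 (log2 -2.08 to -0.16). The exceptions in direction were *Itga4* in endothelial-like against mesenchymal-like cells with no doublets removed (log2 -0.24) and *Itgam* in endothelial-like against mural-like cells with each cell weighted equally (0.39), both on few UMIs. The causes were not tested. *Icam1* in tendon against blood neutrophil-like cells ranged from 5.63 to 7.51. The Seurat clusters left blood against marrow monocytes without a value, and naming cells one by one left marrow stages without one. Depth limits the small classes: 0 UMIs in 41 capillary-like cells allows 8.33 CPM.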
